A study of Mus musculus with 16 samples.

Results

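Trp53 and Wrap53 are neighbouring genes on mouse chromosome 11 that are transcribed away from each other from a shared start region. Trp53 encodes p53, the tumour suppressor transcription factor that responds to DNA damage. Wrap53 encodes a WD40-repeat scaffold protein of Cajal bodies that carries telomerase RNA to them. CTCF is a zinc-finger protein best known for binding DNA at insulators and domain boundaries, and it also contacts RNA. The locus was taken by position, as mm9 chr11:69370000-69406000, with Trp53 on the plus strand at 69393861-69405373 and Wrap53 on the minus strand to its left. These are 2 of the 42918 transcribed regions obtained by merging the RNA-seq lists of both days by strand.

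The cells were female mouse embryonic stem (ES) cells, either differentiating without LIF in suspension for 3 days (day 3) or undifferentiated, adherent and with LIF (day 0). In CLIP, UV light ties a protein to the RNA it touches and an antibody pulls both down; here it addressed CTCF, in nuclei, with the antibody Anti-Flag M2, and there were 2 libraries at day 3 and 2 at day 0. How the tag was introduced, and at what level the tagged protein was made, is not stated in the labels. CTCF ChIP had 1 library at day 3 and 2 at day 0, and RNA-seq of ribosome-depleted nuclear RNA had 1 library per day. The cells used in CLIP and in RNA-seq carried the strain label CAST/Ei x 129/Sv/Jae, while those used in ChIP were labelled 129S1/CastEiJ x 129S1. CLIP without UV and the input libraries were not analysed here, and the values below have no such background beside them.

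The libraries differed in size. By CLIP, 106382 and 165695 peaks were listed for day 3, against 114016 and 213181 for day 0. Their lowest deposited scores were 406 and 212 at day 3, against 409 and 221 at day 0, so at each day replicate 1 listed fewer peaks above a higher floor. Read depth is unknown for all lists. Nothing in the labels says that replicates came from separate cultures, so a p-value here speaks of the spread among these libraries, and that spread may be technical.

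The sequences at the shared start are shown because the strongest CTCF ChIP peak of the locus lay at that start. They are RefSeq windows of build GRCm38.p6, each running from 250 bases before to 50 bases after a transcript start. The first is the inner Wrap53 start (minus strand, chr11:69579200-69579499) and the second is the Trp53 start (plus strand, chr11:69580109-69580408), both written 5′ to 3′ on the strand of the gene. Capitals mark matches on either strand to AGNNGGCNC, a shortened form of the core of the CTCF motif, which was chosen after the sequences were seen.
Wrap53 inner start: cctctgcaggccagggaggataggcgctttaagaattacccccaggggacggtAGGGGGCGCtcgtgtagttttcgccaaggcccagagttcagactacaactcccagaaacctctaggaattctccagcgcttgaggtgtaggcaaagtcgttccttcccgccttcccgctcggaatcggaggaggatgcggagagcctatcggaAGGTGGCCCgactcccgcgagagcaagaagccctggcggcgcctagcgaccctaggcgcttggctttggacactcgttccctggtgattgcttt
Trp53 start: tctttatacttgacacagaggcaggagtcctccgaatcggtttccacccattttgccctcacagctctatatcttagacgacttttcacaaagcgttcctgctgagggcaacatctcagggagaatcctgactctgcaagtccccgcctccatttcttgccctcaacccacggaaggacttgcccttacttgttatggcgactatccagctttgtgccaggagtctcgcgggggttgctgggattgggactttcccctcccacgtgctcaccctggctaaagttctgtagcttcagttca
The inner Wrap53 window held 2 matches, and the one nearer its 5′ end reads AGGGGGCGC in full. That 9-base string, on either strand, was present in 1.25% of the 32851 promoter windows of the same length in the RefSeq table, and AGNNGGCNC in 21.2%. The Trp53 window held neither. RefSeq also gives Wrap53 an outer start, 109 bp left of the Trp53 start. Its window shares 208 bases with the Trp53 window and holds 1 match to AGNNGGCNC, 90 bp to the right of the Trp53 start. That match reads GTGCCCCCT on the Wrap53 strand. Read on the other strand, it differs from AGGGGGCGC only in the last base but one. How often that variant occurs in promoter windows was not counted. The inner Wrap53 start lies 1110 bp left of the Trp53 start. The inner Wrap53 window had 21 CpG dinucleotides, the outer one 9 and the Trp53 window 10, beside a median of 7 over all windows. A match is a description of letters and not a bound site.

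A CTCF ChIP peak was listed at the shared start in all 3 libraries. The peak ran over chr11:69391910-69394020 (mm9) at day 3, against 69391913-69394024 in day 0 replicate 1 and 69391733-69394162 in day 0 replicate 2. It thus covered the Trp53 start, the gap to Wrap53 and the end of Wrap53 nearest to it. Counted from the Trp53 row start, its midpoint lay at -897 bp at day 3, against -893 and -914 bp in the day 0 libraries. A midpoint is the centre of a peak 2111 to 2430 bp wide and not a summit. In GRCm38, the AGGGGGCGC string printed above lies 917 bp left of the RefSeq Trp53 start. The other AGNNGGCNC matches described above lie 1070 bp left and 90 bp right of that start. These distances were measured within each build, and no position was converted. Only the RefSeq start windows were searched, not the whole stretch under the ChIP peak. By these distances the inner Wrap53 window spans the midpoint of the peak, so any match in that window had to lie near the midpoint. The nearness of the string to the midpoint therefore does not locate the bound site.

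The peak at the shared start stood near the top of each list by the authors' deposited score. At day 3 its score was 100.7, which ranked 266 of 41264 peaks and was 3.40 times the list's median. At day 0 it was 149.6 (rank 18 of 45377, 5.57 times the median) and 144.9 (rank 20 of 76745, 8.73 times the median). Its score and its standing in the list were thus lower at day 3 than in either day 0 library. Ranks and scores from lists of unlike length cannot establish a change between days, and with 1 library at day 3 no test was made. Over all transcribed regions with an FPKM of at least 1 as the mean of both days, 13.3% had a ChIP peak within 1 kb of the start in all 3 libraries. Among 907 divergent pairs of such regions with starts at most 1 kb apart, to which Trp53 and Wrap53 belong, 126 (13.9%) had one at the plus-strand start. Regions merge the rows of both days, and this pair met the 1 kb limit through the day 3 Wrap53 row. At day 0 alone, 1034 bases lay between the rows.

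**Figure D1:**
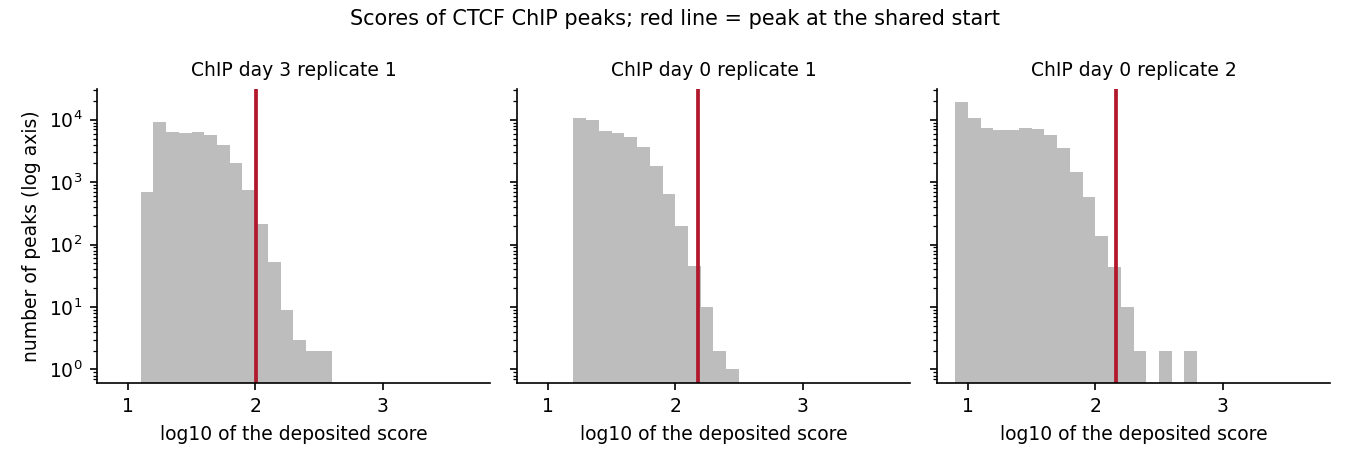
Each panel is the distribution of the authors' peak scores in 1 CTCF ChIP library (horizontal axis, log10 of the score; vertical axis, number of peaks on a log scale), and the red line marks the peak at the shared start of Trp53 and Wrap53. The line sits in the upper tail in every panel, at scores of 100.7 (day 3), 149.6 and 144.9 (day 0).

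A weaker ChIP peak lay inside Wrap53 in all 3 libraries. It was at 69387965-69389896 with a score of 26.0 at day 3, against 69388094-69389881 with 23.5 and 69386325-69390091 with 22.5 at day 0. The score was below the median of the list at day 3 (29.6) and in day 0 replicate 1 (26.8), and above it in day 0 replicate 2 (16.6). Day 0 replicate 2, the longest list, had a further peak in Wrap53 (score 11.3) and the only ChIP peak whose whole length lay inside Trp53, 69398527-69399770 (score 8.69). All 8 ChIP peaks of the locus were in the lists the authors named mus and none was in those named cas. Chromosome 11 as a whole had a cas share of 7.47% of its allelic peaks at day 3, against 6.53% and 9.99% at day 0, so a listing as mus is what most of its allelic peaks show.

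Nuclear RNA of both genes was listed at both days, and Trp53 had the higher level. A row of these lists joins overlapping assembled transcripts, and its FPKM (fragments scaled to transcript length and library size) is the mean over them, not their sum. The Trp53 row had a mean of 18.7 FPKM over 8 transcripts at day 3, against 13.4 FPKM over 9 at day 0. The Wrap53 row had 4.44 FPKM over 5 transcripts at day 3, against 1.90 FPKM over 4 at day 0. The mean FPKM of Trp53 was thus 4.21 times that of Wrap53 at day 3 and 7.04 times at day 0. Summed over the transcripts, Trp53 had 149.7 FPKM at day 3 and 120.5 at day 0, and Wrap53 had 22.2 at day 3 and 7.60 at day 0. By these sums Trp53 was 6.74 times Wrap53 at day 3 and 15.8 times at day 0, so the order of the genes held and the size of the gap did not. Among rows of at least 5 kb, the mean FPKM of Trp53 exceeded 83.1% of rows at day 3 and 79.1% at day 0, while Wrap53 exceeded 39.3% and 24.2%.

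The day 3 values were the higher ones for both genes. The log2 change of mean FPKM plus 1, day 3 minus day 0, was 0.45 for Trp53 and 0.91 for Wrap53, with no test because each day had 1 library. On summed FPKM it was 0.31 for Trp53 and 1.43 for Wrap53. The median change was 0.10 over the 10615 regions of at least 5 kb, mean FPKM of at least 1 and a listing at both days, of which 53.6% were above 0. Trp53 lay above 62.5% of these regions and Wrap53 above 75.9%. With this pseudocount of 1, neither reached a log2 change of 1 on mean FPKM, which 21.7% of the 21554 regions of any length listed at both days did. Wrap53 passed it with a pseudocount of 0.1 (1.18) and on summed FPKM, so its side of that line turns on both choices. Fewer cells expressing a gene and less RNA per cell cannot be told apart in these bulk libraries.

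No listed minus-strand transcript overlapped Trp53 at either day. The Trp53 row began at 69393861 at both days. The Wrap53 row ended at 69393757 at day 3, against 69392826 at day 0, which left 103 bases between the rows at day 3 and 1034 bases at day 0. The day 3 row was thus the one that reached close to Trp53, and RefSeq's outer and inner Wrap53 starts are 109 and 1110 bp from its Trp53 start. The row lengths were 11689 bp (day 3) and 11515 bp (day 0) for Trp53, whose RefSeq gene spans 11526 bp, and 18498 and 17567 bp for Wrap53, whose RefSeq gene spans 18497 bp. An antisense overlap of the pair was therefore not seen in these lists. A transcript that was not assembled would be missed.

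**Figure D2:**
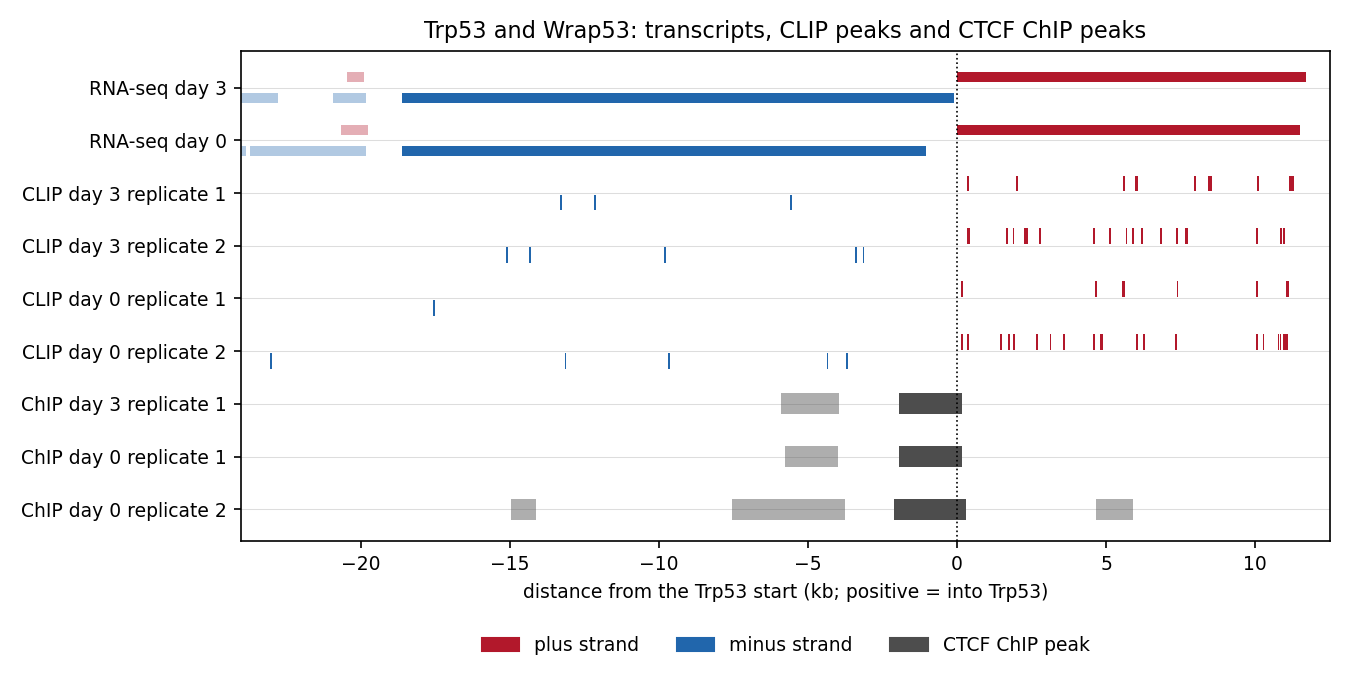
The locus is drawn by distance from the Trp53 start (horizontal axis, kb), with RNA-seq rows, CLIP peaks of each library and CTCF ChIP peaks down the page; red is the plus strand, blue the minus strand, and paler bars are other transcripts or other ChIP peaks. Very narrow CLIP peaks are drawn wider so that they show. The 58 plus-strand CLIP peaks lie within Trp53, 13 minus-strand peaks lie within Wrap53, and none lies between them.

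CLIP peaks were listed on both RNAs in all 4 libraries, and all were on the strand of the gene. On its plus strand Trp53 had 11 and 19 peaks at day 3, against 7 and 21 at day 0. On its minus strand Wrap53 had 3 and 5 at day 3, against 1 and 4 at day 0. The opposite strand of each gene had none. Over the 4 libraries, 58 of 58 Trp53 peaks and 13 of 13 Wrap53 peaks were on the gene's strand. Over the 4970 regions of 5 to 25 kb with an FPKM of at least 1, 96.4% and 96.8% of peaks at day 3 and 96.5% and 96.3% at day 0 were on the strand of the region. Of the 4575 such regions with a peak on either strand, 76.7% had none on the opposite strand, so the strand pattern of both genes is a common one. A same-strand peak in all 4 libraries was present in 19.7% of all regions with a mean FPKM of at least 1 and in 63.9% of those of at least 5 kb, so such a presence is common for transcripts of this length.

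Trp53 carried more CLIP peak bases per length than Wrap53 in every library. Trp53 had 39.5 and 59.5 peak bases per kb at day 3 and 27.0 and 73.7 at day 0. Wrap53 had 8.38 and 9.35 at day 3 and 2.43 and 10.3 at day 0. The Trp53 to Wrap53 ratio was 4.72 and 6.37 at day 3 and 11.1 and 7.13 at day 0, a mean log2 ratio of 2.80 ± 0.51 (SD, n = 4 libraries). A two-sided exact permutation test gave p = 0.125, the smallest that 4 libraries allow. The RNA ratio of the pair, given above, was also above 1 at both days; whether the CLIP ratio exceeds it depends on taking the mean or the sum of FPKM, so CLIP per RNA level is not compared between the genes. Among regions that had peaks in a library, Trp53 density exceeded 86.2% and 87.8% at day 3 and 79.6% and 87.3% at day 0. Wrap53 density exceeded 50.2% and 42.3% at day 3 and 17.1% and 41.1% at day 0. Trp53 was in the upper part of each list and Wrap53 near or below the middle.

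**Figure D3:**
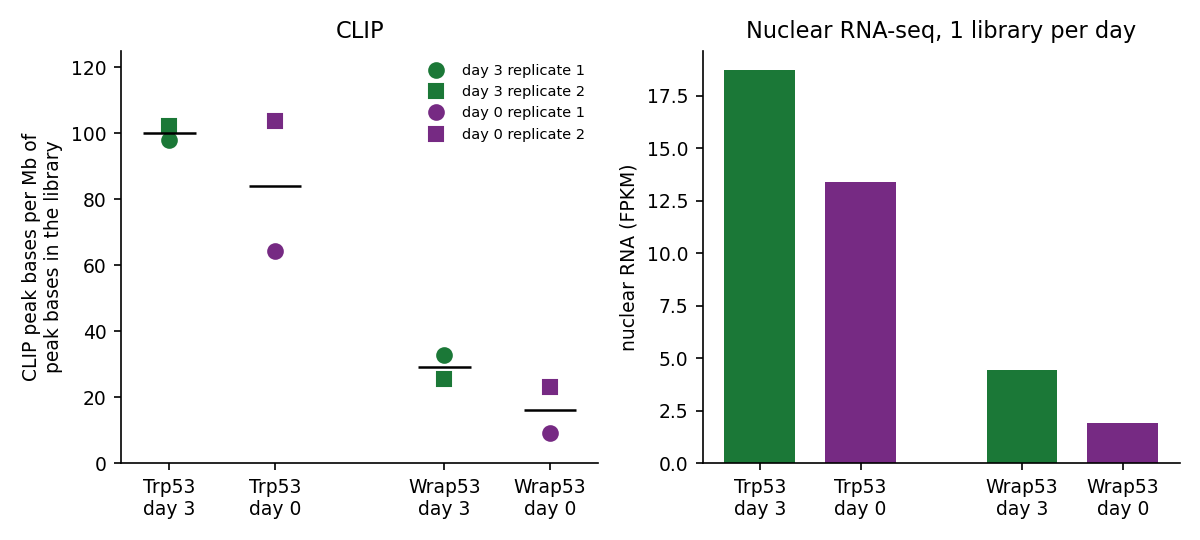
Left, CLIP peak bases of Trp53 and Wrap53 per Mb of all peak bases of a library, with 1 point per library (circle, replicate 1; square, replicate 2) and a line at the mean of 2 libraries. Right, bars of the mean nuclear FPKM of the pooled transcripts, with 1 library per day. The Trp53 points of the days overlap, the Wrap53 points at day 3 lie above those at day 0, and all RNA bars are higher at day 3.

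No difference in CLIP peak bases between day 3 and day 0 passed the test for either gene. Scaled to all peak bases of a library, Trp53 had 98.0 and 102.3 peak bases per Mb at day 3, against 64.3 and 103.7 at day 0. Wrap53 had 32.9 and 25.4 at day 3, against 9.15 and 23.0 at day 0. The Trp53 values of the days overlap through day 0 replicate 2. The Wrap53 values do not, and in 18.1% of the 12325 regions tested both day 3 values stood above both day 0 values. On the log2 scale with a pseudocount of 1, the difference day 3 minus day 0 was 0.29 ± 0.42 (SE) for Trp53, with a 95% interval of -0.73 to 1.31. For Wrap53 it was 0.94 ± 0.95, with an interval of -1.34 to 3.22. A difference above 0 was found in 49.7% of the regions tested. limma with Benjamini-Hochberg adjustment over the 12325 regions gave an adjusted p of 0.928 for Trp53 and 0.868 for Wrap53. It called 0% of regions at 0.05 in either direction. Without adjustment, limma put 899 regions under 0.05, and neither gene was among them.

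The size of these differences rests on single libraries. Without day 0 replicate 1 the log2 difference was -0.050 for Trp53 and 0.32 for Wrap53, and without day 0 replicate 2 it was 0.63 and 1.56. On peaks scoring above the median of their list it was -0.029 and 2.76. Wrap53 had no such peak in day 0 replicate 1, so its 2.76 rests on a value at the floor set by the pseudocount. Without scaling to the library the Trp53 value was 0.12. The adjusted p stayed between 0.848 and 1 for Trp53 and between 0.708 and 1 for Wrap53 over these and the other settings tried.

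About as many Trp53 peaks overlapped a peak of another library as did not, and no Wrap53 peak overlapped one. Of the 58 Trp53 peaks, 30 overlapped a peak of another library by at least 1 bp, and of the 13 Wrap53 peaks none did. Within a day, 2 of 11 and 2 of 19 Trp53 peaks overlapped the other replicate at day 3, and 5 of 7 and 5 of 21 at day 0. Joined across libraries with gaps of up to 100 bp, Trp53 peaks formed 23 clusters, of which 2 held all 4 libraries, 6 held 3, 4 held 2 and 11 held 1. Wrap53 peaks formed 12 clusters, of which 1 held 2 libraries and 11 held 1. Wrap53 had 13 peaks over 18498 bp, fewer and sparser than Trp53, and the difference in overlap between the genes was not tested.

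Both clusters with all 4 libraries were in the distal part of Trp53. In neither did any base lie under peaks of all 4 libraries. The cluster at 69403886-69403945, centred 10055 bp from the start, held 1 peak of each library. The day 0 replicate 1 peak there was 2 bp wide, and the day 3 replicate 1 peak shared 1 bp with day 0 replicate 2 and none with the others. The cluster at 69404613-69405122, centred 11007 bp from the start and near the 3′ end, had 2 peaks in each day 3 library, against 1 and 4 at day 0. Its day 3 replicate 1 peaks overlapped no peak of another library and joined only through the allowed gap of 100 bp. In day 0 replicate 1 this cluster included the highest-scoring Trp53 peak of that library, 69404890-69404997, with a score of 1199. At day 3 the highest-scoring peaks lay mid-gene, at 69399833-69399920 (score 1598) in replicate 1 and 69399736-69399798 (score 1288) in replicate 2, in 1 cluster but without overlapping each other. In day 0 replicate 2 the highest was 69400091-69400162 (score 635). Exon positions in mm9 were not used here, so peaks are not assigned to exons or introns. RefSeq lists a Trp53 pseudogene, Trp53-ps, on chromosome 17, and the sources used here do not say how reads matching both were placed.

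The proximal part of Trp53 carried peaks in all 4 libraries. The first 500 bp had 2 peaks in each day 3 library, against 2 and 3 at day 0, or 9 of 58 (15.5%) in 4.28% of the length. These 9 peaks lay in 2 of the 23 Trp53 clusters, so the same place was counted more than once. The narrowest was 3 bp wide. Some were nearly adjoining peaks of the same library, such as 69394184-69394205 and 69394208-69394257 in day 3 replicate 1, and such peaks were not joined before counting. Over all 6404 regions of 5 to 25 kb, 2.87% and 2.82% of peaks at day 3 and 2.27% and 2.69% at day 0 were in the first 500 bp. These are given side by side with no test, since the peaks of a gene are not replicates. The last 1000 bp also held 9 of 58 Trp53 peaks (15.5%), against 10.0% to 13.7% over the same regions by library. None of the 13 Wrap53 peaks was in either end.

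Within the first 500 bp, peaks lay at 2 places, and the one nearer the start had peaks in both day 0 libraries and in neither day 3 library. At day 3 the peaks of both replicates lay at 69394184-69394257, centred 334 to 372 bp from the start. At day 0 both replicates had peaks at 69394002-69394074, centred 145 to 182 bp from the start, and replicate 2 had another at 69394193-69394223, which overlapped the day 3 peaks. The peaks at 69394002-69394074 were 8 and 64 bp wide in replicate 1 and 3 and 50 bp wide in replicate 2. With 2 libraries per day no exact test could pass 0.05, and this contrast was noticed after the values were seen. How common such a contrast is over all transcribed regions is not given here.

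**Figure D4:**
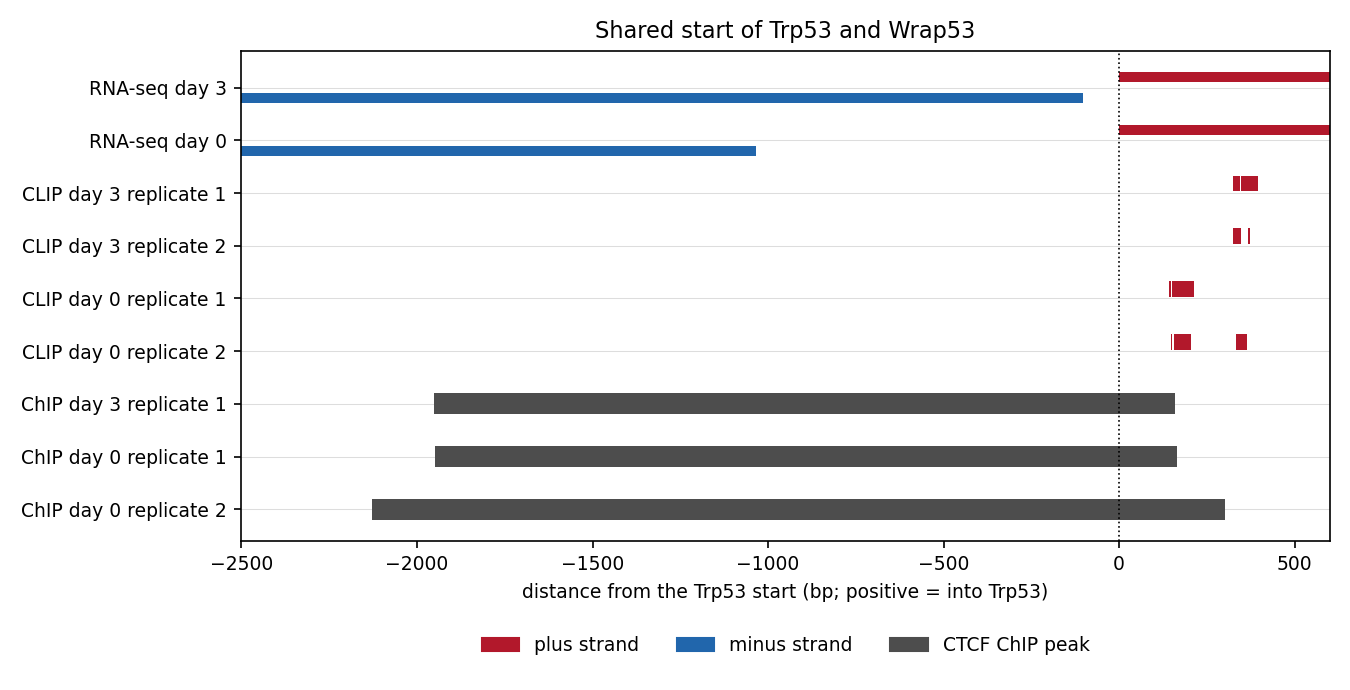
The shared start is enlarged, by distance from the Trp53 start in bp, with RNA-seq rows, CLIP peaks and CTCF ChIP peaks down the page (red, plus strand; blue, minus strand; grey, ChIP). The Wrap53 row ends 103 bases short of Trp53 at day 3 and 1034 bases short at day 0, and the nearest CLIP peaks begin 141 bp inside Trp53, at the right edge of the ChIP peak.

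The strong ChIP peak and the CLIP peaks lay side by side. No CLIP peak of either strand was listed in the 3268 bases between 69390733 and 69394002 in any library, a stretch that holds nearly all of the ChIP peak. It also holds the gap between the rows, where no transcript was listed. A longer stretch without CLIP peaks lay inside Wrap53, between 69384218 and 69388252, so a gap of this size is not particular to the shared start. The ChIP peak reached 159 bp into Trp53 at day 3, against 163 and 301 bp at day 0. The 4 proximal day 0 CLIP peaks fell on this edge, and the day 3 CLIP peaks lay beyond the edge of the day 3 ChIP peak. In all, 11 of the 58 Trp53 peaks overlapped a ChIP peak of any library. Of these, 4 were the proximal day 0 peaks, and 4 day 3 and 3 day 0 peaks lay in the low-scoring internal peak that day 0 replicate 2, the longest list, alone had. For Wrap53 it was 3 of 13, of which 2 lay in the weaker ChIP peak that all libraries had. Day 3 had 1 ChIP list and day 0 had 2, so overlaps with a list of the same day are not compared between days. ChIP and CLIP carried different strain labels.

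Over all divergent pairs, 107 of 907 (11.8%) had a same-strand CLIP peak on both genes in all 4 libraries, and 7 (0.772%), this pair included, also had the ChIP peak at the start in all 3 libraries. The region most like Trp53 over 4 CLIP and 2 RNA-seq values was chr6:90992499-91067126 on the minus strand, at a Euclidean distance of 0.50 on the log2 scale among 12323 regions. The next were chr13:69750894-69773212 on the plus strand (0.56) and chr17:25098173-25152946 on the minus strand (0.61). The region most like Wrap53 was chr17:15178605-15201460 on the plus strand (0.41), then chr7:121408120-121419816 on the minus strand (0.62) and chr1:167145053-167167301 on the minus strand (0.91). The files do not pair these regions with gene names.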

How the data were processed

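Each peak in the deposited CLIP and ChIP lists has the authors' score, which served here only to rank or filter within its own list. The deposited RNA-seq value was read as FPKM, the unit of Cufflinks; no header names it. In all rows that join several transcripts (9148 at day 3 and 10083 at day 0), that value times their number gave whole hundredths within 0.001 of a hundredth, as a mean of values with 2 decimals does. Tools named with mm9, per the submitters' processing notes, were Cufflinks 2.1.1, bedtools 2.17.0, SAMtools 0.1.18, Novoalign 3.00.03, TopHat2 2.0.8, cutadapt 1.0 and Trim Galore 0.3.3. No source used here names the peak caller. Autosomes and X were used. RNA-seq rows of both days that overlapped on a strand were merged into regions. The fit was limma 3.58.1 in R 4.3.3, with a variance that follows the mean level, on log2 of the bases of a region under same-strand peaks, per Mb of all peak bases in the library, plus 1 (the pseudocount, which understates changes of low regions). Regions entered it when at least 2 libraries had a peak there. It was tested on simulated data. Peaks were shared from 1 bp of overlap. The rest used SciPy 1.17.1, NumPy 2.4.6, pandas 2.3.3 and matplotlib 3.10.9 under Python 3.11.15. Members, lists and tests were chosen with earlier results of these data known. By the rule for what is cited, any peak or RNA-seq row of the locus may be given by its position, as may the 3 regions most like each gene. Lists of p53 pathway, Cajal body and ES cell marker genes needed gene names at mm9 positions and were not analysed here. Same-numbered CLIP libraries of the 2 days are not said to share a culture.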

Additional observations from a re-analysis of the deposited data

How the results depend on the processing

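The FPKM change, log2 0.45 for Trp53 and 0.91 for Wrap53, was 0.48 and 1.18 with a pseudocount of 0.1, and 0.78 and 1.23 after centring on the median of all regions. That median, -0.32 over 38366 regions, included regions listed at only 1 day. Over the 21554 regions listed at both days the median was 0.27, and centring on it would lower both changes instead. Summing the pooled transcripts, chosen after seeing the data, gave 0.31 and 1.43. Weighting rows by length could change nothing, since each gene had 1 row per day. The CLIP difference for Trp53 turned to -0.029 on peaks above the median score and ranged from -0.050 to 0.63 when 1 library was left out. For Wrap53 that range was 0.32 to 1.56, with the same sign under all 15 alternatives. Several of these only returned the main estimate of 0.94. Among them, those that altered just the variance or the set of regions tested could not move it. No alternative called either gene. The number of regions called by limma was 0, 1 when peaks were counted in place of bases, and 0 to 377 without 1 library, where the lone sample of a day is assumed to vary like the others; the cause was not tested. With the replicate block the adjusted p was 0.936 for Trp53 and 0.916 for Wrap53 with 0 regions called, and deviations of same-numbered libraries had a correlation of 0.02 over regions. The labels do not say that a number marks a shared batch, though replicate 1 had the higher score floor at both days, and a shared batch was not tested. One variance for all levels, also chosen after seeing the data, gave 0 calls. The shared ChIP peak, the strand of all peaks and the absence of overlaps in Wrap53 held under the alternatives tried for them. Given the main values, those alternatives could not have come out otherwise, so they add no support. Trp53 overlaps between replicates numbered 14, or 10 when at least 50% of a peak had to overlap. Wrap53 rests on 1 to 5 peaks per library.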

Other observations

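To the left of Wrap53, the window held minus-strand transcripts and a short plus-strand transcript opposite them. The RefSeq gene table places Efnb3, which encodes the ligand ephrin-B3, next to Wrap53 on that side; the rows themselves carry no gene name. The minus-strand row 69372928-69374041 had 13.9 FPKM at day 3, and the overlapping row 69370146-69374043 had 6.28 FPKM at day 0. Further left, the minus-strand row 69367594-69371101 had 1.57 FPKM at day 3, against 2.83 FPKM for 69367594-69370022 at day 0, so the neighbouring rows did not all have the higher value at day 3. The plus-strand row at 69373395-69373972 had 12.1 FPKM at day 3, against 4.23 FPKM for 69373199-69374099 at day 0. A single CLIP peak was listed there in the 4 libraries, on the minus strand at 69370818-69370897 in day 0 replicate 2, with a score of 615. Short rows can have high FPKM values, and each day had 1 library, so no comparison was tested.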
